A study of Homo sapiens with 3 samples.

Results

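EP300, a histone acetyltransferase and transcriptional coactivator, was mapped by chromatin immunoprecipitation and sequencing (ChIP-seq) at 10 genes of LIF, JAK and STAT3 signalling in naive human embryonic stem cells. The genes are LIF, LIFR, IL6ST, IL6R, IL27RA, JAK1, JAK2, TYK2, STAT3 and SOCS3. They were taken by name from the authors' peak tables. No measured value entered the rule, but the names were chosen with earlier results of these data known. They are 10 of 19970 protein-coding genes compared, and hold 28 of 65276 peaks in replicate 1 and 26 of 64896 peaks in replicate 2. The cells were H9, an established embryonic stem cell line, labelled wild type. They were grown in PXGL, a naive-state medium of N2B27 with the MEK inhibitor PD0325901, the tankyrase inhibitor XAV939, the protein kinase C inhibitor Gö 6983 and human LIF at 10 ng/mL. A layer of mouse embryonic fibroblasts lay under them. There were 2 EP300 samples, called replicates 1 and 2, and 1 antibody-free input, all grown the same way, so there was no untreated or mutant group. The labels do not say whether the EP300 samples came from separate cultures, and the spread between them may be technical. No RNA was measured, so neither the naive state nor the expression of any gene could be checked here.

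LIF is a cytokine that binds its receptor LIFR, which pairs with the shared signal-transducing chain gp130, encoded by IL6ST. IL6R and IL27RA are receptor chains that also work with gp130, for IL6 and IL27. JAK kinases bound to the receptor tails phosphorylate STAT3, which enters the nucleus and activates target genes, among them SOCS3, an inhibitor that binds the receptor complex and closes the loop. In mouse embryonic stem cells this route maintains the naive state. EP300 acetylates histones at active promoters and enhancers.

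The promoter windows of 4 of these genes are shown first because they cover the strongest and the weakest of the occupied start sites and 2 between them. The windows run from 250 bases before to 50 after a RefSeq start site (GRCh38.p14) and are written 5′ to 3′ on the strand of the gene. IL27RA lies at chr19:14031512-14031811 on the plus strand, LIFR at chr5:38556597-38556896 on the minus strand and IL6ST at chr5:55994914-55995213 on the minus strand. In these 3 windows capitals mark the GC box GGGCGG on either strand. The window of JAK2 lies at chr9:4984836-4985135 on the plus strand and is the 1 window in which both replicate summits of the strongest peak fell. In it capitals mark the stretch between the summits.
IL27RA: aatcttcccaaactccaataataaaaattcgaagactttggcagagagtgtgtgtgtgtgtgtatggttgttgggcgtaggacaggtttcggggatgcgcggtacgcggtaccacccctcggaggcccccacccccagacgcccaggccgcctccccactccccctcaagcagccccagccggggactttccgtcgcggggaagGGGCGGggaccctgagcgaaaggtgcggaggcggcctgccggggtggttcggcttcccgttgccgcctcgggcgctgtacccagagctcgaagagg
JAK2: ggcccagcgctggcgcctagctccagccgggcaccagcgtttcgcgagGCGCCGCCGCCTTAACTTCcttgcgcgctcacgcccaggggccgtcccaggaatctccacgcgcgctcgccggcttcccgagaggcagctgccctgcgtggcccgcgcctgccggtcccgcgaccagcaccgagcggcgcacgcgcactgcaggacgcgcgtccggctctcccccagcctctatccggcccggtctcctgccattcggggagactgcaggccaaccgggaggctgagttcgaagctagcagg
LIFR: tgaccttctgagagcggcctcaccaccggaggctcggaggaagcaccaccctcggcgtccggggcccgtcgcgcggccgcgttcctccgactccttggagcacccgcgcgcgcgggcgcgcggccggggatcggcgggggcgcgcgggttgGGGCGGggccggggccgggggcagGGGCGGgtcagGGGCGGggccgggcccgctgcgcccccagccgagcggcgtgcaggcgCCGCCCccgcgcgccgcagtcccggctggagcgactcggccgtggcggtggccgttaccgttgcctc
IL6ST: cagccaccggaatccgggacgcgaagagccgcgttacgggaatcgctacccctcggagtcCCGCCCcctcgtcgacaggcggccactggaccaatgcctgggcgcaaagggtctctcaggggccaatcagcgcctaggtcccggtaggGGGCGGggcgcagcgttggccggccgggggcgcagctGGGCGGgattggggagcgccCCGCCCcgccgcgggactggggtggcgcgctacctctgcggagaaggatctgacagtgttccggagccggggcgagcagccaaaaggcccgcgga

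EP300 lay at the promoters of all 10 genes in both replicates. A gene was counted if each replicate had a peak that the authors assigned to it within 3 kb of a start site, and the peaks of both replicates overlapped. Of all coding genes, 67.6% met this rule, so occupancy alone was common. The 10 genes differed among themselves in strength and in breadth. Strength is given as fold enrichment at the summit, the authors' own value for each peak, with the percentile of a peak within its own list. The lower of both percentiles had a median of 91.2 over the 10 genes, against 80.2 over the 13499 coding genes with a merged region whose strongest peaks were both promoter peaks. With 2 samples of 1 group and genes chosen with earlier results known, no test was made of these differences, and all values below are descriptions.

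**Figure D1:**
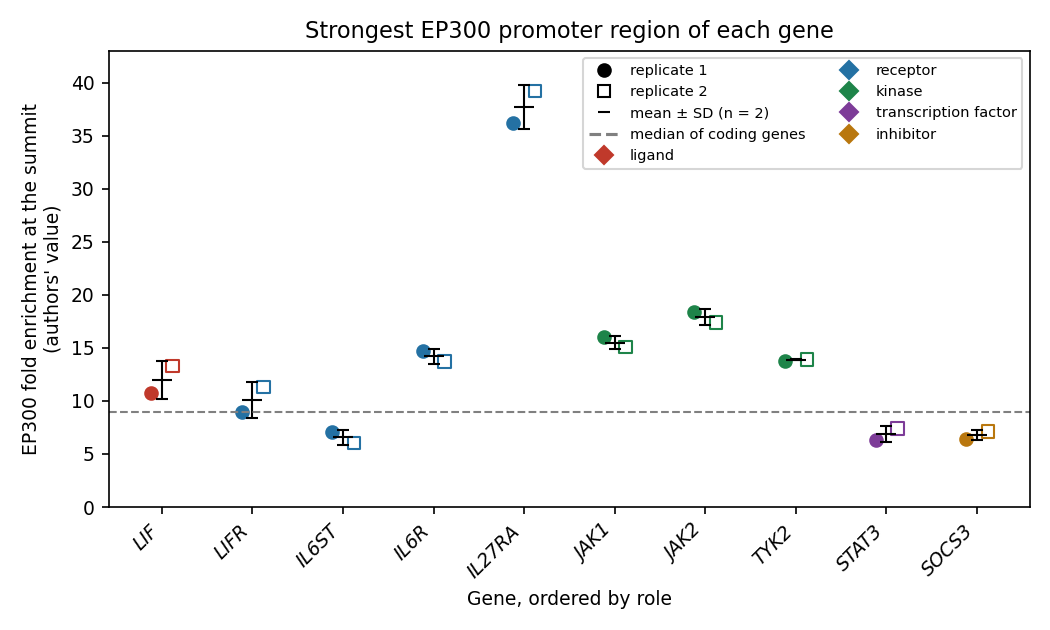
EP300 fold enrichment at the summit of the strongest promoter region of each gene, with filled circles for replicate 1, open squares for replicate 2 and bars for mean ± SD (n = 2). IL27RA stands apart at 36.2 and 39.2, the 3 kinase genes and IL6R lie between 13.7 and 18.4, and IL6ST, STAT3 and SOCS3 lie below the median of coding genes (dashed line).

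The ligand gene LIF carried broad EP300 signal. It lies on chromosome 22 at 30240453 to 30246759 (GRCh38, minus strand). Its promoter region, the union of overlapping peaks of both replicates, spanned 30244380 to 30249842, which is 5463 bp, and covered the start site. The non-coding gene LIF-AS2, at 30246210 to 30246993, lies wholly inside it, so the signal cannot be assigned to LIF alone. It held 4 summits in replicate 1 and 5 in replicate 2, and 4 of them matched within 200 bp. Inside the gene, 1367 bp after the start in replicate 1, fold enrichment was 10.7 in replicate 1 and 10.1 in replicate 2. Nearest the start, at 357 bp after it in replicate 1 and 276 bp in replicate 2, it was 9.38 and 13.3. These 2 summits changed order between the replicates, so the highest point of the LIF promoter was not fixed by these data. Upstream of the start, at -462 and -437 bp, fold enrichment was 7.36 in replicate 1 and 9.17 in replicate 2.

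Farther upstream of LIF, 3 regions over 3 kb from the start were found in both replicates. They spanned 30250521 to 30251379, 30252331 to 30253863 and 30253967 to 30255024, all annotated as distal intergenic. Their fold enrichment was weak, at 5.08, 5.61 and 4.08 in replicate 1 and 3.47, 4.58 and 3.12 in replicate 2. All 3 were lower in replicate 2, where the last stood at percentile 14.1 of the list. Together the LIF regions covered 8913 bp, more than in 96.0% of coding genes with a promoter region, although the gene body measures 6.31 kb.

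Among the receptor genes, IL27RA had the highest EP300 signal. The gene lies on chromosome 19 at 14031762 to 14053218 on the plus strand. Its 1 region spanned 14030910 to 14032751, with fold enrichment 36.2 in replicate 1 and 39.2 in replicate 2 (37.7 ± 2.1, mean ± SD, n = 2). Among promoter peaks it ranked 1 of 31239 in replicate 1 and 3 of 31165 in replicate 2. Among all peaks it ranked 4 and 5. The -log10 q-values were 189 and 195. The peak was wider than 87.9% of all peaks in replicate 1 and 89.1% in replicate 2, with a summit 154 bp after the start in replicate 1 and 220 bp in replicate 2. The region also reached over the end of the hormone gene RLN3 at 14031551. No other region was assigned to IL27RA or lay within its gene body.

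IL6R, which encodes the ligand-binding chain for IL6, had 5 regions, the most of the 10 genes. It lies on chromosome 1 at 154405343 to 154469450, plus strand. The region over its start spanned 154404800 to 154406537, with fold enrichment 14.7 in replicate 1 and 13.7 in replicate 2 (14.2 ± 0.69, SD, n = 2). Its summits lay 202 and 213 bp after the start. The non-coding gene IL6R-AS1, at 154402321 to 154406564, spans this region, so its signal cannot be assigned to IL6R alone. The other 4 regions lay well inside the gene. Those spanning 154430125 to 154430698 and 154432250 to 154433333 were annotated as promoters of shorter transcripts, with 6.72 and 5.61 in replicate 1 and 7.25 and 5.34 in replicate 2. Those spanning 154462600 to 154463240 and 154463390 to 154463973 were intronic, with 5.33 and 5.69 in replicate 1 and 4.43 and 6.36 in replicate 2. None of these inner regions reached the level at the IL6R start in either replicate.

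LIFR and IL6ST, the receptor pair that LIF itself uses, had 1 region each. LIFR lies on chromosome 5 at 38474668 to 38608403, minus strand. Its region spanned 38555860 to 38557537, with fold enrichment 8.92 in replicate 1 and 11.3 in replicate 2 (10.1 ± 1.7, SD, n = 2). It held 2 summits in each replicate and covered 2 of the 3 RefSeq start sites of LIFR. The third, at 38595405, had no region, and neither had the 5′ end of the longest model, which lies 52052 bp upstream of the replicate 1 summit. The antisense gene LIFR-AS1 starts inside the same region, at 38556786, so the signal cannot be assigned to either gene alone.

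IL6ST had the lowest mean fold enrichment of the 10 genes. It lies on chromosome 5 at 55935095 to 55994963, minus strand. Its region spanned 55994533 to 55995735, with fold enrichment 7.06 in replicate 1 and 6.05 in replicate 2 (6.56 ± 0.72, SD, n = 2). The summits lay upstream of the start, at -475 bp in replicate 1 and -373 bp in replicate 2. The non-coding gene IL6ST-DT begins at 55995167, inside the region, and both summits lie within that gene. The signal thus cannot be assigned to IL6ST alone. The window of IL6ST printed above held 4 GC boxes and that of IL27RA held 1. The highest summits of both genes lay outside these windows, and a relation between GC boxes and fold enrichment was not tested.

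Of the kinase genes, JAK2 and JAK1 had strong promoter regions at their 5′ ends, and TYK2 had a weaker one there. JAK2 lies on chromosome 9 at 4984390 to 5129948, plus strand. Its region spanned 4984264 to 4985825, with fold enrichment 18.4 in replicate 1 and 17.4 in replicate 2 (17.9 ± 0.72, SD, n = 2). It covered 3 of the 4 RefSeq start sites of JAK2, and both summits lay upstream of the nearest of them, at -202 and -184 bp. The fourth start, at 5041532, had no region assigned to JAK2. A weak region at 5042701 to 5043321, which the authors assigned to the pseudogene CSNK1G2P1, lay just downstream of it, with 2.66 and 4.92.

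JAK1 had a promoter region over 2 of its 3 RefSeq start sites. The gene lies on chromosome 1 at 64833229 to 65067746, minus strand. The region at its 5′ end spanned 65065598 to 65068519, with fold enrichment 16 in replicate 1 and 15.1 in replicate 2 (15.5 ± 0.63, SD, n = 2). The inner region spanned 64965747 to 64966551, 101550 bp into the gene, with 7.64 and 6.86 (7.25 ± 0.55, SD, n = 2). The upstream start thus had the higher value in both replicates, and the ranges of the regions did not overlap. The summits were placed closely, 12 bp apart at the first region and 5 bp apart at the second.

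TYK2 lies on chromosome 19 at 10350533 to 10380572, minus strand, and its strongest region was far from its main start. That region spanned 10351950 to 10354446, near the end of the gene and 27513 bp after the 5′ end, and had fold enrichment 13.8 in replicate 1 and 13.9 in replicate 2 (13.9 ± 0.042, SD, n = 2). The authors' annotation calls it a promoter because a short transcript of TYK2 starts there. No RefSeq start site of TYK2 lies inside it. At the main start the region spanned 10380045 to 10380696, with 8.10 and 7.58 (7.84 ± 0.37, SD, n = 2), below the medians of 8.91 and 9.04 for coding genes. Another region, 10380867 to 10381769, lay upstream of the start with 3.93 and 5.12. Measured at the main start alone, TYK2 would stand below LIFR in the order of the 10 genes.

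STAT3, the transcription factor of the route, had a weak and narrow promoter peak. The gene lies on chromosome 17 at 42313324 to 42388442, minus strand. The region over its start spanned 42387812 to 42388552, with fold enrichment 6.35 in replicate 1 and 7.40 in replicate 2 (6.88 ± 0.74, SD, n = 2). Its peak measured 648 bp in replicate 1, wider than 40.5% of that list, and 741 bp in replicate 2, wider than 46.5%. In replicate 1 alone, a further peak at 42388827 to 42389247 had 4.4. The 2 inner regions annotated as promoters of shorter transcripts, 42330016 to 42330846 and 42328422 to 42328975, had 6.31 and 3.47 in replicate 1 and 5.75 and 4.27 in replicate 2. The strongest STAT3 region in both replicates lay just beyond the 3′ end of the gene, at 42312116 to 42313183, with 7.06 and 8.24 (7.65 ± 0.84, SD, n = 2). STAT5A ends at 42311943, so this region lies between the ends of both genes.

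SOCS3, the feedback inhibitor, had broad and low EP300 signal. It lies on chromosome 17 at 78356778 to 78360925, minus strand. Its promoter region spanned 78358672 to 78361970, which is 3299 bp, and held 4 summits in replicate 1 and 2 in replicate 2. The highest reached 6.44 in replicate 1 and 7.12 in replicate 2 (6.78 ± 0.48, SD, n = 2). They were not the same summit, and lay 597 bp apart. At the 2 summits that matched, fold enrichment was 6.37 and 6.15 in replicate 1 and 7.12 and 6.29 in replicate 2. The divergent non-coding gene SOCS3-DT starts inside the region, at 78360448, so the promoter signal cannot be assigned to SOCS3 alone. Downstream of SOCS3, the region 78351325 to 78352416 had 6.57 in replicate 1 and 9.69 in replicate 2 (8.13 ± 2.2, SD, n = 2). That ratio of 1.47 between replicates was the largest of the 25 regions of the 10 genes. The region 78352636 to 78354181 had 2.57 and 3.01, the lowest of the 25. The non-coding gene LOC124904064, at 78351268 to 78352782, spans the first of these downstream regions and reaches into the second. Their signal thus cannot be assigned to SOCS3 alone.

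**Figure D2:**
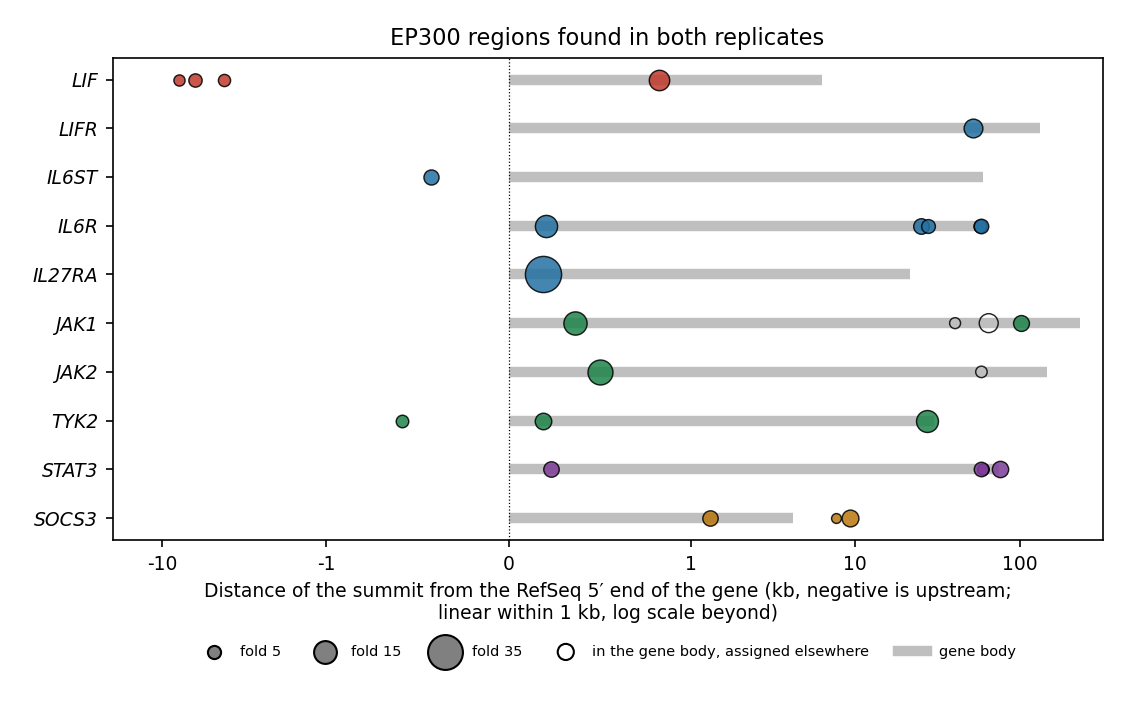
EP300 regions found in both replicates, placed by the distance of their mean summit from the RefSeq 5′ end of each gene, linear within 1 kb and on a log scale beyond. Grey bars are gene bodies, circle area grows with mean fold enrichment, and open circles are regions in the gene body that the authors assigned to another gene. The strongest regions of IL27RA, JAK2, JAK1 and IL6R sit within 1 kb of the 5′ end, those of LIFR, TYK2, STAT3 and SOCS3 do not, and LIF has 3 weak regions upstream.

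By mean fold enrichment of the strongest promoter region, the order was IL27RA, JAK2, JAK1, IL6R, TYK2, LIF, LIFR, STAT3, SOCS3 and IL6ST. Neighbours in this order whose replicate ranges overlapped were IL6R and TYK2, LIF and LIFR, STAT3 and SOCS3, and SOCS3 and IL6ST. The other neighbours had ranges that did not overlap, with 2 values each. In all, 5 of the 10 genes reached percentile 90 or above in both lists. These were IL27RA, JAK2, JAK1, IL6R and TYK2. Of all coding genes 17.4% did, but that base includes genes without a promoter region. Among the 13499 coding genes with such a region, the upper quartile was 90.3, so the share at 90 or above was higher there. IL6ST, STAT3 and SOCS3 lay below the median of coding genes, at percentiles 68.1, 70.4 and 71.2. When the promoter region had to cover a RefSeq start, the median over the 10 genes was 85.9, against 80.7 for coding genes, and TYK2 dropped out of the upper group.

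**Figure D3:**
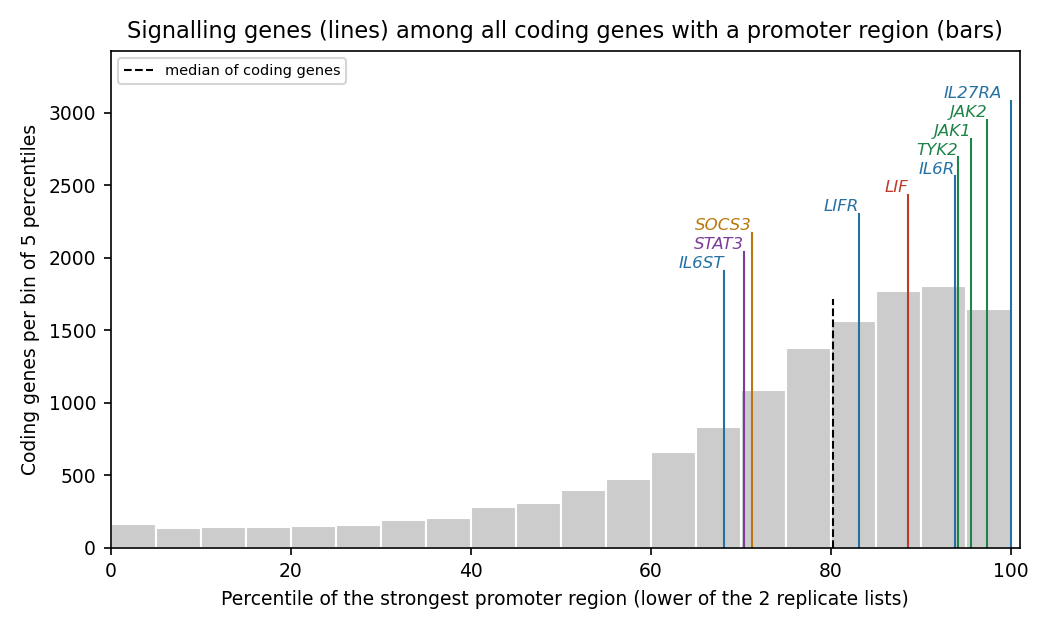
Number of coding genes (bars) by the percentile of their strongest promoter region, taken as the lower of both replicate lists, with each signalling gene as a coloured line. IL27RA, the 3 kinase genes and IL6R lie above percentile 90, and IL6ST, STAT3 and SOCS3 lie between 68.1 and 71.2, below the median of 80.2.

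The tallest and the broadest signals lay at different genes. LIF and SOCS3 are the shortest genes of the 10, at 6.31 and 4.15 kb, and their regions had the largest summed length, 8913 and 5937 bp. IL27RA had the tallest region and a summed length of 1842 bp, more than in 49.7% of coding genes with a promoter region. IL6ST, with 1203 bp, had the least. Peaks of 3 kb or more numbered 2 of 28 in replicate 1 and 2 of 26 in replicate 2, all at the LIF and SOCS3 promoters. Over all peaks, 1.76% in replicate 1 and 2.00% in replicate 2 were that wide.

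**Figure D4:**
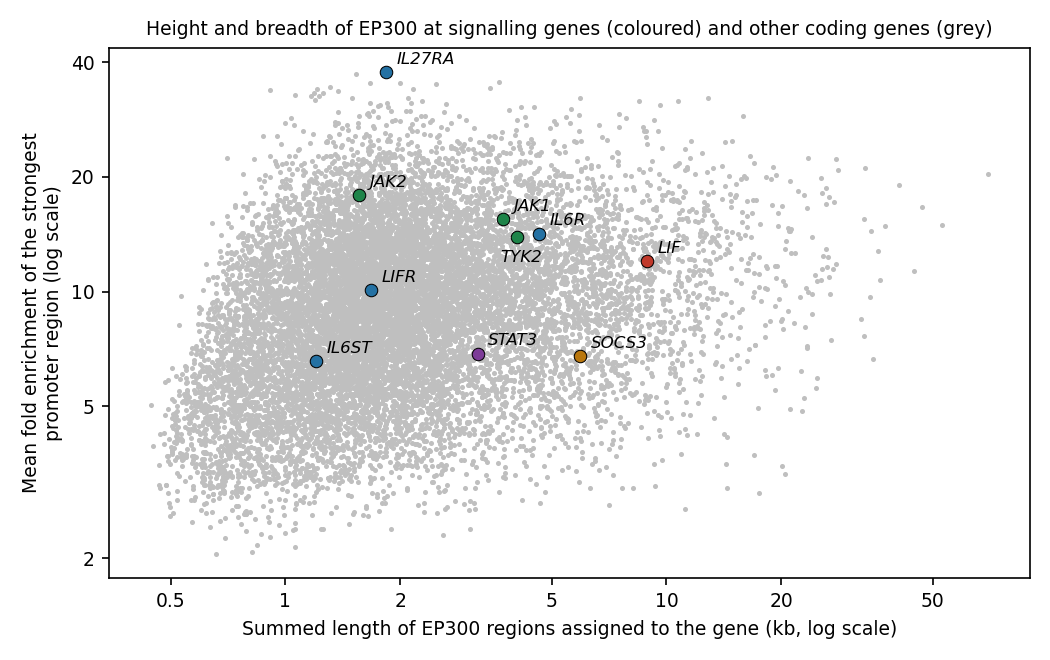
Mean fold enrichment of the strongest promoter region against the summed length of all EP300 regions assigned to a gene, both on log scales, with signalling genes coloured by role and other coding genes in grey. IL27RA lies at the upper edge with a summed length of 1842 bp, while LIF and SOCS3 reach 8913 and 5937 bp at lower fold enrichment.

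The peaks of these genes were mostly found in both replicates. In replicate 1, 26 of 28 peaks overlapped a replicate 2 peak (92.9%, Wilson 95% interval 77.4 to 98), against 74.5% of all peaks. In replicate 2, 25 of 26 overlapped one of replicate 1 (96.2%, 81.1 to 99.3), against 73.9% of all peaks. These intervals cover counting error only and treat peaks of the same gene as independent. Median fold enrichment of the peaks of these genes was 6.39 in replicate 1 and 6.99 in replicate 2. Over all peaks it was 4.51 in both lists. Peaks of equal strength were not compared, so whether the higher sharing belongs to these genes was not tested. The unshared peaks were the 1 upstream of STAT3 and, in IL6R, 1 at 154435859 to 154436354 in replicate 1 and 1 at 154464983 to 154465423 in replicate 2, with 3.29 and 2.95. All 3 were below the median fold enrichment of 4.51 of their list. The shared peaks formed 25 regions, 12 of them higher in replicate 1 and 13 in replicate 2, and no region differed by more than 1.47 times between replicates. The highest summits lay a median of 48 bp apart.

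Of the 25 regions, 17 were promoter regions and 8 lay over 3 kb from a start or past the gene end. The 8 belonged to LIF (3), IL6R (2), SOCS3 (2) and STAT3 (1), so 4 of 10 genes had at least 1. Of all coding genes, including those without a promoter region, 20.4% did. The mean was 0.8 per gene, against 0.546 over coding genes with a promoter region. Median fold enrichment was 5.47 in replicate 1 and 4.50 in replicate 2 for these 8, and 7.64 and 7.40 for the promoter regions. JAK1, IL6R, TYK2 and STAT3 had 2 or more promoter regions, which is 4 of 10. The share was 16.7% of all coding genes, again including those without a promoter region. Of the 17 promoter regions, 6 covered no RefSeq start of the gene, against 34.4% of those of coding genes. All 6 lay at IL6R, STAT3 and TYK2.

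At the strongest region over a RefSeq start, the summits of both replicates lay downstream of the nearest start in 7 of the 10 genes, against 67.9% of 11682 coding genes. The median distance was 217.5 bp in replicate 1 and 216.5 bp in replicate 2, against 202 bp in both for coding genes. JAK2 and IL6ST had both summits upstream, and SOCS3 had 1 on each side of its RefSeq start at 78359667. Both SOCS3 summits lay downstream of the start that the authors used, 78360077. The share and the distances were near those of coding genes.

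RefSeq promoter windows were available for 9 of the 10 genes, 17 windows in all, because several genes have more than 1 start. They held 64.0% G and C in the median, against 62.3% for 22131 windows of coding genes. The LIFR window printed above was the richest at 81.7%, above 98.1% of coding windows. The 3 starts outside the EP300 regions had 41.7% (JAK1 at 64966936), 47.3% (LIFR at 38595405) and 58.3% (JAK2 at 5041532). Of these, the JAK1 start lay close to the inner JAK1 peak, which ended at 64966536 in replicate 1 and 64966551 in replicate 2. Only the replicate 2 peak reached the next JAK1 start, at 64966549. Low values also occurred at starts inside a region, with 42.3% for LIFR at 38557467, 50.3% for JAK2 at 4984390 and 52.7% for JAK1 at 65067746. The strong windows of IL27RA and IL6R, at 64.7% and 64.0%, were near the median of coding genes.

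A set of 7 short motifs was searched on both strands of these windows. The GC box GGGCGG was in 6 of 17 windows, at 6 genes, against 56.3% of coding windows. The TFAP2 motif GCCNNNGGC was in 6 of 17, at 5 genes, against 27.4%. The STAT motif TTCNNNGAA was in 2 of 17, both of LIFR, against 6.79%. The LIFR matches lay at 38557641 to 38557649 and 38595562 to 38595570, and neither was inside an EP300 region. The windows of SOCS3 belong to its RefSeq starts at 78359667 and 78360925. The start that the authors gave its promoter peaks, 78360077, lay in neither window, so the sequence before it was not searched. TEAD, as GGAATG, was in 4 of 17 windows against 12.2%, ETS, as CCGGAAG, in 1 against 12.8%, and AP-1, as TGANTCA, in 1 against 6.15%. CRE, as TGACGTCA, was in 0 of 17 against 2.26%. GC boxes can overlap each other, as they do at the JAK1 start at 64966549, and windows of 1 gene share sequence. A match is a run of letters and not a measured site.

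Other genes of the route were read from 5 lists. Of 46 genes, 41 had a promoter peak in both replicates (89.1%, against 67.6% of coding genes), with a median percentile of 78.6 against 80.2. Of the gp130 cytokines, 7 of 9 were occupied, led by EBI3, a subunit of IL27, with fold enrichment 10.5 in replicate 1 and 10.8 in replicate 2. CLCF1, a cytokine that signals through the CNTF receptor, had 9.50 and 11.8, and oncostatin M, encoded by OSM beside LIF, had 6.14 and 7.13. CNTF and IL31 had no assigned peak in either list. Their median of 60.7 was the lowest of the 5 lists.

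Of the other gp130 receptor genes, 4 of 5 were occupied. OSMR, the partner of gp130 for oncostatin M, had 19.8 and 18.1, above every receptor gene described here but IL27RA. CNTFR, the CNTF-binding chain, had 4.97 and 5.67. IL31RA had no assigned peak. Of the remaining JAK and STAT genes, 6 of 7 were occupied. JAK3, the kinase of the common gamma chain receptors, had 14.5 in both replicates, which is close to JAK1 and TYK2. STAT5A had 11.1 and 12.6 and STAT6 11 and 13.5, all above STAT3 in both replicates. STAT2 had no assigned peak.

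Of the JAK-STAT inhibitors, 14 of 15 were occupied, at a median percentile of 86.2. SOCS5 led with 24.0 in replicate 1 and 26.2 in replicate 2. SOCS2 had 19.2 and 15, and PTPN6, a phosphatase that acts on cytokine receptors, had 19 and 15.3. Each of these was higher than SOCS3 in both replicates. PTPN11, which encodes the phosphatase SHP2, had no assigned peak, but its 5′ end at 112418947 on chromosome 12 lay inside a region that the authors assigned to RPL6, with 5.93 and 4.97. Of 10 genes described as targets of LIF and STAT3, mostly in mouse embryonic stem cells, all 10 were occupied, at a median percentile of 72.2. None reached percentile 90, which 17.4% of all coding genes did, including those without a promoter region. Among the 13499 coding genes with such a region the upper quartile was 90.3, so the share was higher there. With 10 genes the difference was not tested. The highest were SALL4, with 7.84 and 10.8, PIM3, with 7.79 and 8.08, and the kinase gene PIM1, with 7.43 and 7.30. PIM1 also had 7 regions over 3 kb from its start, against a mean of 0.546 over coding genes with a promoter region.

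**Figure D5:**
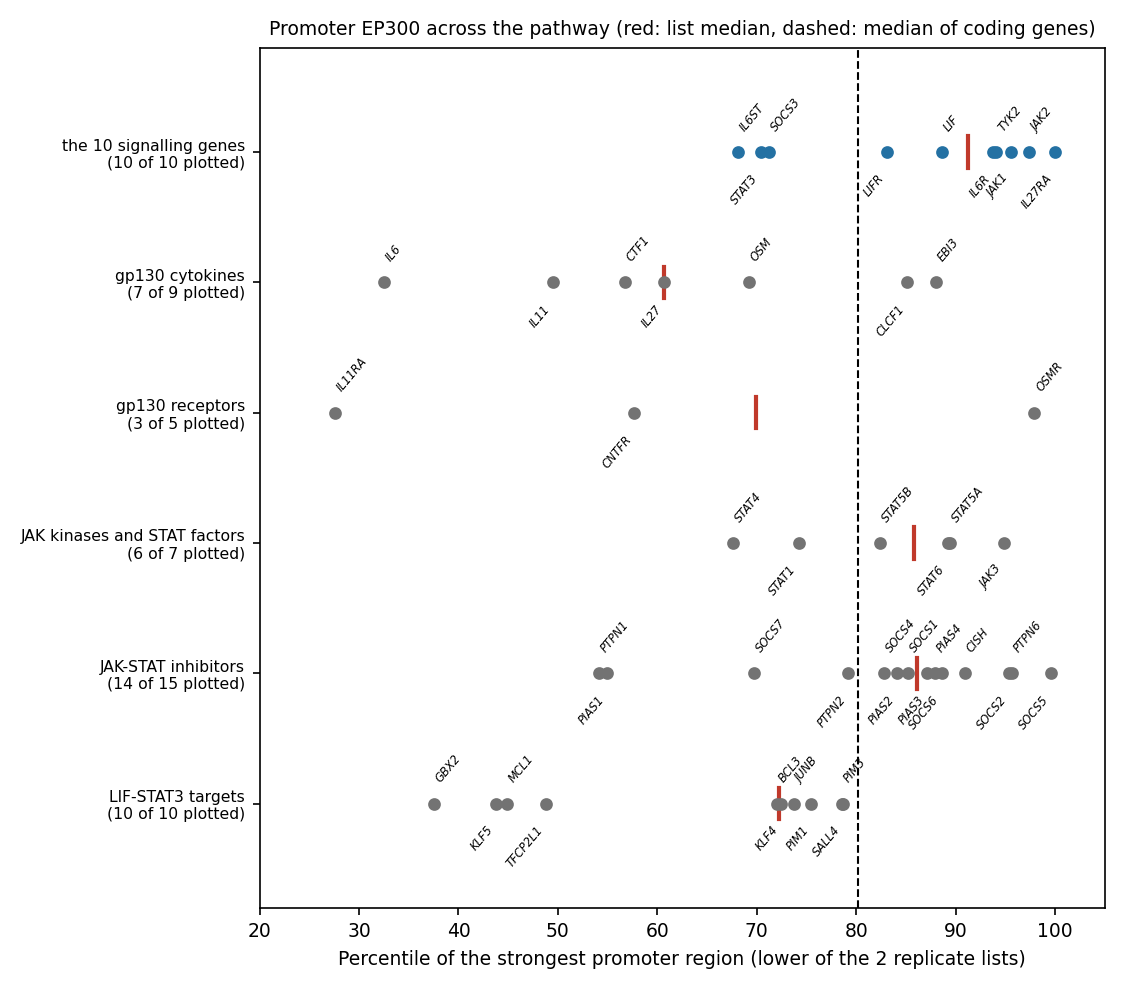
Percentile of the strongest promoter region, as the lower of both replicate lists, for the 10 signalling genes (blue) and for the occupied genes of 5 other lists (grey, 1 receptor gene not plotted), with list medians in red and the median of coding genes dashed. The medians run from 91.2 for the 10 genes and 86.2 for the inhibitors to 72.2 for the targets and 60.7 for the cytokines.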

How the data were processed

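EP300 was measured in 2 samples of 1 group, and the input library was not analysed here. The authors deposited 1 peak table per EP300 sample, so peaks were called per sample, against input by the names of the peaks, and the table names credit the annotation to ChIPseeker. The submitters' processing notes name fastp 0.19.11 and the build GRCh38. Aligner and peak caller: not given in the sources used here. Each deposited row is a summit with a fold enrichment, a ratio, and -log10 p-values and q-values, per the file headers. The deposited score equalled 10 times the -log10 q-value to within 1 in each row and was not used. The tables hold no read counts, so depth is unknown.

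Rows of equal interval were joined, with the highest fold enrichment and its summit kept, on chromosomes 1 to 22 and X (Python 3.11.15, pandas 2.3.3). Peaks overlapping by at least 1 bp between replicates were merged into regions, each with the authors' gene. Percentiles are of fold enrichment within a list. Coding genes came from RefSeq GRCh38.p14; of 29712 gene names in the tables, 15433 matched one, 185 of them by an older symbol, and an unmatched gene counted as unoccupied. Joining and overlap were checked on simulated peaks. The members, lists, motifs and the percentile of 90 were chosen with earlier results of these data known. Genes named are the 10 members, up to 3 genes per other list by percentile, list genes without an occupied promoter, and genes sharing a member's region or assigned a region in its body. Of the genes this rule names, 1 is not reported here and stays in the counts and medians. RN7SL236P was named after its values were seen. Shares have Wilson 95% intervals. Alternatives were a 50% overlap, a fold enrichment or -log10 q-value of at least 5, a 1 kb promoter, another assignment of genes, other percentiles and each replicate alone.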

Additional observations from a re-analysis of the deposited data

How the results depend on the processing

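All 10 genes stayed occupied at their promoters in each of the 7 alternatives run, where the share of coding genes ranged from 55.0% to 77.5%. The other pathway genes ranged from 30 of 46, at a fold enrichment of at least 5, to 43 of 46, with any shared region within 3 kb of a start. They stayed at 41 with either replicate alone. The 43 include IL31RA, and the region near it, at 55922969 to 55923611, lay just past the higher coordinate of the gene, 55922850. The strand of IL31RA was not recorded, so that end may not be its start. The share of member peaks found in both replicates, 94.4% over both lists, was 90% when fold enrichment had to reach 5, 87.2% when the -log10 q-value did and 81.5% with summits within 200 bp. The share of all peaks at these settings is not given here, so whether the difference from all peaks holds was not tested. The median percentile of 91.2 was 85.4 among promoter peaks alone, 80.6 with the lowest fold enrichment of joined rows and 85.9 for regions covering a RefSeq start, an alternative chosen after seeing the data. Coding genes then had 68.3, 75.9 and 80.7. With 1 replicate left out it ranged from 91.6 to 93.6. The 8 regions over 3 kb from a start were 3 at a fold enrichment of at least 5, 5 when the -log10 q-value had to reach 5, 65 when every region within 50 kb was counted, whichever gene it was assigned to, and 8 to 9 with 1 replicate left out. Counts of such regions for coding genes at these settings are not given here. No paired analysis was possible because the study has 1 group of EP300 samples. Depth is unknown, so what it limits could not be assessed.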

Other observations

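Some of the strongest EP300 near these genes was assigned to a neighbour and is not counted above. Upstream of SOCS3, a region at 78364394 to 78372190 on chromosome 17 had fold enrichment 17.7 in replicate 1 and 15.8 in replicate 2, against 6.44 and 7.12 at the SOCS3 promoter. It was assigned to RN7SL236P and, in replicate 1, also to the divergent transcript SOCS3-DT. Upstream of LIF, beyond its 3 weak regions, a region at 30257144 to 30259243 on chromosome 22 had 12.7 and 11.5 and was assigned to OSM. It lay 11.1 kb from the LIF start. Within 50 kb of LIF lay 20 regions, the most of the 10 genes, of which 4 were assigned to LIF. No such count is given here for other coding genes. Inside the JAK1 gene, a region at 65002413 to 65003450 on chromosome 1 had 9.56 and 11.1, above the inner JAK1 promoter in both replicates, and was assigned to LINC01359. Which gene such a region acts on was not tested.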
